A study of Bos taurus with 9 samples.

Results

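The miR-106b-25 cluster and the members of its X-linked relative, the miR-106a-363 cluster, were followed across small RNA libraries from the rectal wall of beef steers. The 7 mature miRNAs are bta-miR-106b, bta-miR-93 and bta-miR-25 of the first cluster, and bta-miR-106a, bta-miR-20b, bta-miR-18b and bta-miR-363 of the second. They were chosen by cluster name, and all 7 were among the 515 mature miRNAs of the deposited table. Tissue came from 5 super-shedders (SS), steers whose feces had carried E. coli O157 at more than 10000 colony-forming units per g, and from 4 non-shedders (NS), pen-mates that were negative for it. All animals were feedlot steers on a barley-based finishing diet, none was challenged with the bacterium, and each gave 1 library. No source used here gives their ages. By slaughter only SS steer 310 was still counted above the super-shedding level, and the other SS were recorded as positive without a count. The SS group thus stands for steers that had recently super-shed. Whole rectal tissue was ground, so each value is a mixture of epithelium, muscle, connective tissue, vessels and leukocytes, and fewer cells of a type cannot be told apart from less of a miRNA per cell.

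MiRNAs are short RNAs that pair with target mRNAs mainly through a seed near their 5′ end and lower the output of those mRNAs. The members descend from the same ancestral cluster as miR-17-92 and fall into known seed families. In humans and mice, miR-106b, miR-93, miR-106a and miR-20b belong to the miR-17 family, miR-25 and miR-363 to the miR-25 family together with miR-92a and miR-92b, and miR-18b pairs with miR-18a. In human cells miR-106b and miR-93 repress CDKN1A, a brake on the cell cycle, and miR-25 represses BCL2L11, a promoter of cell death, and the miR-106b-25 cluster is known for its high level in proliferating cells and in gastric tumours.

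In the RefSeq annotation of the cattle assembly ARS-UCD2.0, used here for names and gene order only, MIR106B, MIR93 and MIR25 lie next to each other inside MCM7, the gene of a subunit of the replicative DNA helicase. MIR106A, MIR18B, MIR20B, MIR19B-2, MIR92A-2 and MIR363 follow each other in a second run that lies inside no annotated gene. The mature bta-miR-19b and bta-miR-92a can therefore come from this run as well as from miR-17-92, and were not counted as members.

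The library totals, meaning the read number by which the deposited values were scaled, ranged from 650726 to 6314556 reads, so 1 read was worth 0.158 to 1.54 CPM (reads scaled to a library total of 1000000). Between 360 and 415 miRNAs were detected per library. Marker miRNAs of the tissue were present in every library, with 5 of 5 of smooth muscle, 9 of 9 of intestinal epithelium, 6 of 6 of leukocytes and 3 of 3 of erythrocytes above 0. The smooth muscle miRNA bta-miR-143 took 22.1% to 73.1% of the library total in SS and 30.4% to 62.5% in NS.

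The miR-106b-25 cluster made up nearly all reads of the 7 members. Its summed level averaged 2160 ± 1318 CPM over the 5 SS and 3419 ± 1661 CPM over the 4 NS (mean ± SD), while the 4 members of the miR-106a-363 cluster summed to 16.1 ± 19.0 CPM in SS and 35.9 ± 31.7 CPM in NS. Ordered by mean level over the 9 libraries, bta-miR-25 came first (2026 CPM, rank 41 of the 515 miRNAs), followed by bta-miR-93 (593 CPM, rank 72), bta-miR-106b (101 CPM), bta-miR-363 (15.7 CPM, rank 207), bta-miR-106a (4.36 CPM, rank 256), bta-miR-20b (3.48 CPM, rank 272) and bta-miR-18b (1.36 CPM, rank 327). In every library bta-miR-25 lay above bta-miR-93 and bta-miR-93 above bta-miR-106b. The neighbours bta-miR-106a, bta-miR-20b and bta-miR-18b overlapped widely and could not be ordered beyond the spread between animals.

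**Figure D1:**
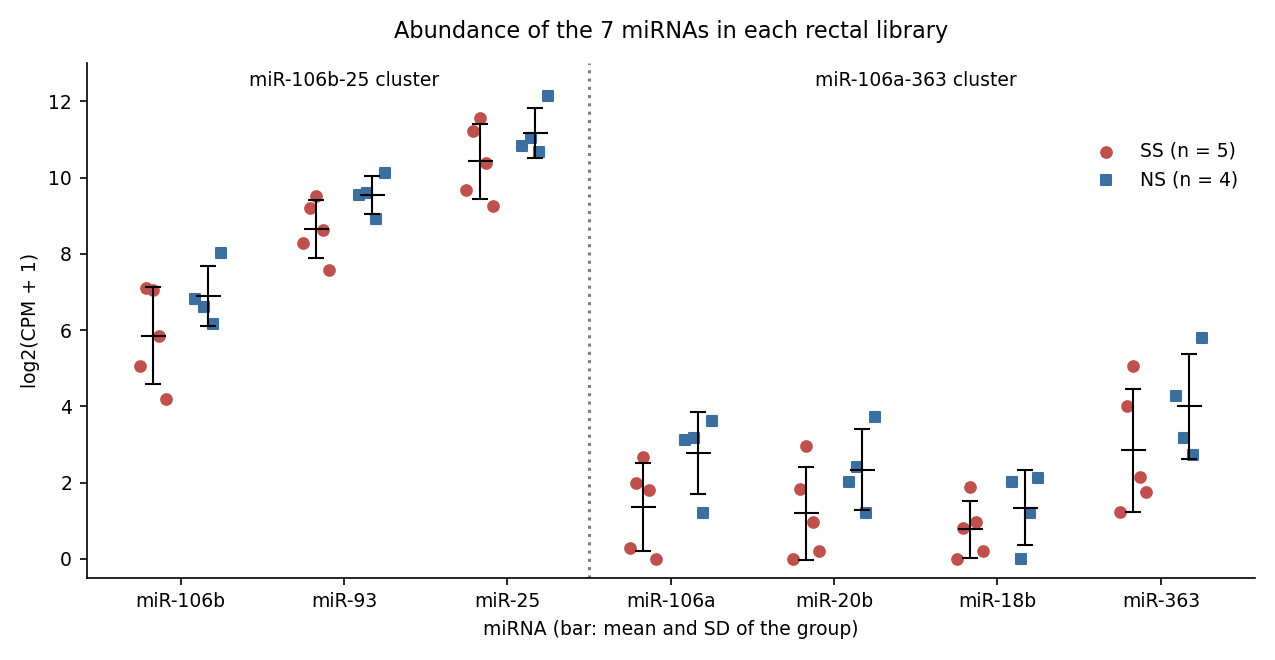
Abundance of the 7 miRNAs as log2(CPM + 1) in each library, with SS as circles left of NS as squares; bars give the mean and SD of each group. The 3 miRNAs of the miR-106b-25 cluster sit far above the 4 of the miR-106a-363 cluster, and the groups overlap for every miRNA.

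The level of bta-miR-25, the most abundant member, was 813, 2386, 3051, 1343 and 611 CPM in SS steers 274, 287, 294, 299 and 310, against 1826, 2097, 1622 and 4483 CPM in NS steers 108, 152, 165 and 242. NS steer 242 was the highest of all, SS steers 294 and 287 came next, and 3 of the 5 SS libraries lay below every NS library. The log2 difference, taken as SS minus NS on log2(CPM + 1), was -0.74 (SE 0.55, 95% confidence interval -1.95 to 0.46, limma adjusted p = 0.446). It was -0.42 without NS steer 242 and -0.45 without SS steer 310.

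For bta-miR-93, the second member of the cluster, SS held 310.3, 592, 735, 395 and 190.5 CPM in steers 274, 287, 294, 299 and 310, against 739, 773, 481 and 1119.7 CPM in NS steers 108, 152, 165 and 242. Here 3 of the 4 NS libraries lay above every SS library and 3 of the 5 SS libraries below every NS library, with NS steer 165 among the SS values. The log2 difference was -0.90 (SE 0.48, 95% confidence interval -1.96 to 0.16, limma adjusted p = 0.358).

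The third member, bta-miR-106b, had 32.2, 137, 133, 56.4 and 17.3 CPM in SS steers 274, 287, 294, 299 and 310, against 111, 96.0, 70.4 and 259 CPM in NS steers 108, 152, 165 and 242. It had the widest range of the cluster, 14.99-fold between NS steer 242 and SS steer 310, compared with 7.34-fold for bta-miR-25 and 5.88-fold for bta-miR-93 between the same animals. The log2 difference was -1.04 (SE 0.68, 95% confidence interval -2.52 to 0.43, limma adjusted p = 0.383). Without NS steer 242 it was -0.67, and without SS steer 310 it was -0.63.

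Among the X-linked members bta-miR-363, of the miR-25 family, was the most abundant, with 1.35, 15.1, 32.3, 3.45 and 2.38 CPM in SS steers 274, 287, 294, 299 and 310, against 18.4, 8.05, 5.61 and 54.6 CPM in NS steers 108, 152, 165 and 242. These values rest on 6 to 48 reads per SS library and 12 to 49 per NS library. It ranged 40.4-fold over the 9 libraries, and its log2 difference was -1.15 (SE 0.87, 95% confidence interval -3.05 to 0.74, limma adjusted p = 0.446). The log2 difference of bta-miR-363 was -0.55 without NS steer 242 and -0.75 without SS steer 274.

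The level of bta-miR-106a, a miR-17 family member, was 0.225, 2.95, 5.38, 2.51 and 0 CPM in SS steers 274, 287, 294, 299 and 310, against 7.68, 8.05, 1.30 and 11.2 CPM in NS steers 108, 152, 165 and 242. The 3 highest NS libraries lay above every SS library, but the reads behind the values were few, 25 in all SS libraries together and 33 in all NS libraries. In SS steer 310 the count of 0 allows up to 0.475 CPM, and in NS steer 108 the 95% Clopper-Pearson interval of 5 reads was 2.49 to 17.9 CPM, which holds 3 of the SS values. The log2 difference was -1.42 (SE 0.68, 95% confidence interval -2.90 to 0.05, limma adjusted p = 0.313).

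Tests were limited to the 245 miRNAs with 5 CPM or more in 4 or more libraries, and 5 of the 7 members were among them. For bta-miR-106a these were exactly 4 libraries, 3 of them NS, so it was tested through the group in which it was higher. For bta-miR-363 they were 6 libraries, every NS library among them. NS, the group in which bta-miR-363 was higher, thus met the filter alone. The members bta-miR-20b and bta-miR-18b stayed under the filter. Of these, bta-miR-20b had 0, 2.58, 6.73, 0.940 and 0.158 CPM in SS steers 274, 287, 294, 299 and 310, against 3.07, 4.29, 1.30 and 12.3 CPM in NS steers 108, 152, 165 and 242 (log2 difference -1.15, two-sided exact permutation p = 0.183). For bta-miR-18b, 0, 0.738, 2.69, 0.940 and 0.158 CPM were found in the same SS steers, against 3.07, 0, 1.30 and 3.35 CPM in the NS steers (log2 difference -0.57, two-sided exact permutation p = 0.286). No library held more than 11 reads of bta-miR-20b or 4 reads of bta-miR-18b, and the 0 of bta-miR-18b in NS steer 152 allows up to 1.61 CPM. Single libraries could still be told apart by counting error for bta-miR-20b. The 95% interval (Clopper-Pearson) was 0.194 to 2.75 CPM in SS steer 299 and 6.12 to 22.0 CPM in NS steer 242. The interval of SS steer 294 also lay wholly above that of SS steer 299, and it overlapped that of NS steer 242. Such separation was thus found within SS as well and does not mark the groups.

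Between SS and NS, none of the 5 tested members met both criteria taken from the study, which were an adjusted p below 0.1 and a difference of more than 1 log2 unit between groups. Over all 245 miRNAs limma called 0%, with 40 at an unadjusted p under 0.05, and neither edgeR's quasi-likelihood test, edgeR's exact test nor DESeq2 called a member (smallest adjusted p of a member 0.510, for bta-miR-106a in DESeq2), while they called 0%, 0.408% and 3.67% of the 245. At an unadjusted p under 0.05 in limma, 0 of the 5 members were lower in SS, against 15.9% of all tested. The count was 2 of 5 with bta-miR-143 taken out of the library total, against 37 of all 244 tested miRNAs. Without SS steer 294 it was 3 of 5, against 56 of 245, and in the other settings it was 0 or 1. Groups that did not overlap, with SS below NS, were found for 0 of the 5 members and 6.53% of all tested.

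The means of all tested members were lower in SS, but so were those of most miRNAs. With the deposited values 5 of 5 members had a lower mean in SS (median log2 difference -1.04), against 88.2% of the 245 miRNAs (median -0.70), and without the filter 7 of 7, against 74.8% of all 515. When the libraries were rescaled with TMM factors, which align the bulk of miRNAs between libraries, the median miRNA was at -0.04 and 51.8% of miRNAs were lower in SS. The members then lay at -0.05 for bta-miR-25, -0.21 for bta-miR-93, -0.37 for bta-miR-106b, -0.59 for bta-miR-363 and -1.10 for bta-miR-106a. For bta-miR-93 the 95% confidence interval on this scale was -0.65 to 0.24 and for bta-miR-25 it was -0.63 to 0.52, narrower than with the deposited values. The log2 difference stayed below 0 for the 5 members in every alternative setting in which they were tested, and a member was called in 0 of the 21 settings.

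**Figure D2:**
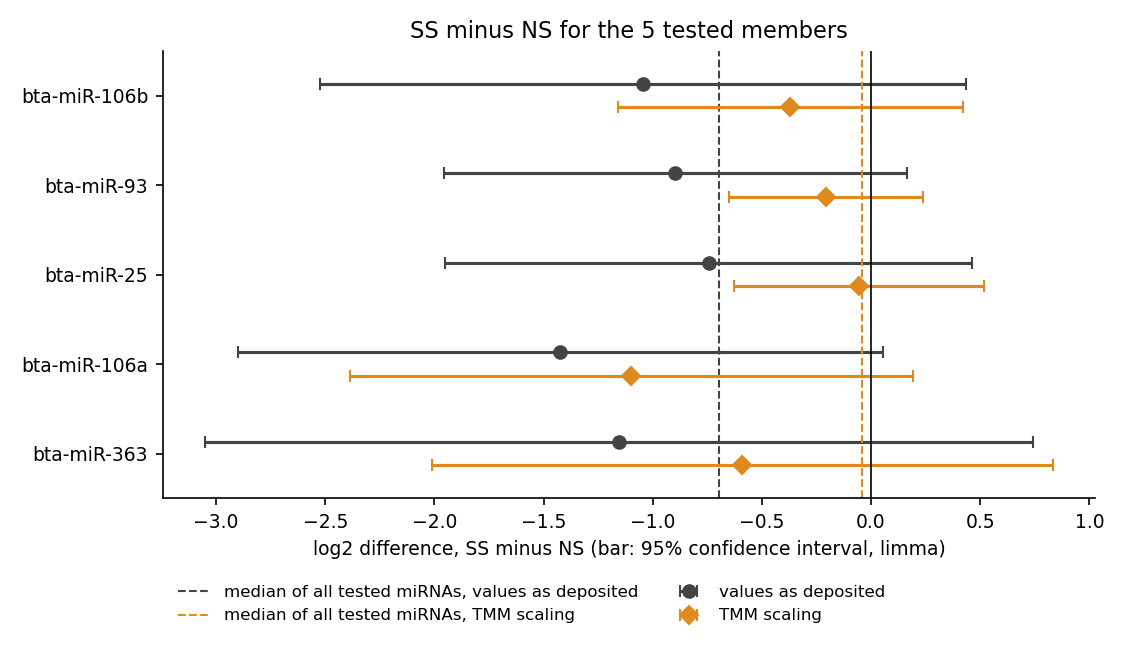
Log2 difference of SS minus NS for the 5 tested members with its 95% confidence interval from limma, for the values as deposited (circles) and after TMM scaling (diamonds); dashed lines give the median of all 245 tested miRNAs on each scale, -0.70 and -0.04. Every interval crosses 0, and bta-miR-25 sits close to the median miRNA on both scales.

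The levels of the miR-106b-25 cluster were set beside the makeup of each library. CPM are shares of the library total, so the values of other miRNAs are not independent of the share of bta-miR-143. The 3 libraries with the largest share of bta-miR-143, SS steers 274, 310 and 299 at 73.1%, 73.0% and 65.3%, were the 3 lowest for bta-miR-106b, bta-miR-93 and bta-miR-25, and also for bta-miR-20b and bta-miR-363. NS steer 165, which came next at 62.5%, was the lowest NS library for each miRNA of the cluster. The 3 highest for bta-miR-25 were NS steer 242 and SS steers 294 and 287, which held 30.4%, 22.1% and 32.2% of bta-miR-143. These 3 were also highest for the summed leukocyte markers, with 7797 and 16502 CPM in SS steers 287 and 294 and 42682 CPM in NS steer 242, against 456 to 2179 CPM in the other SS libraries and 3451 to 5651 CPM in the other NS libraries. On the log2 scale 6 of 6 leukocyte markers, 9 of 9 epithelial markers, 3 of 3 erythrocyte markers and 1 of 5 smooth muscle markers had lower means in SS. On that scale 88.2% of the 245 tested miRNAs were lower in SS, so lower means were not particular to these markers. With means of CPM the count was 5 of 6 for leukocytes and 5 of 9 for epithelium, and the share of all miRNAs was not computed. The summed epithelial markers were at 4276, 248008, 401685, 60170 and 19564 CPM in SS steers 274, 287, 294, 299 and 310 (mean 146741), against 99431, 134093, 80240 and 25250 CPM in NS steers 108, 152, 165 and 242 (mean 84753). NS steer 242 was highest for the cluster and for the leukocyte sum, and lowest of the NS for the epithelial sum. The erythrocyte sum was 278 to 661 CPM in SS and 269 to 496 CPM in the other NS libraries, but 3034 CPM in NS steer 242. Depth ran along with these levels and with group. The 3 deepest libraries, SS steers 310, 274 and 299 at 6314556, 4438272 and 3192360 reads, were the 3 lowest for each miRNA of the cluster. NS steers 108 and 242 were the shallowest, at 650726 and 896649 reads. Library totals came to 18142261 reads over all SS and 5727503 over all NS. The part of bta-miR-143, cell makeup and depth in the levels of the members was not tested.

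**Figure D3:**
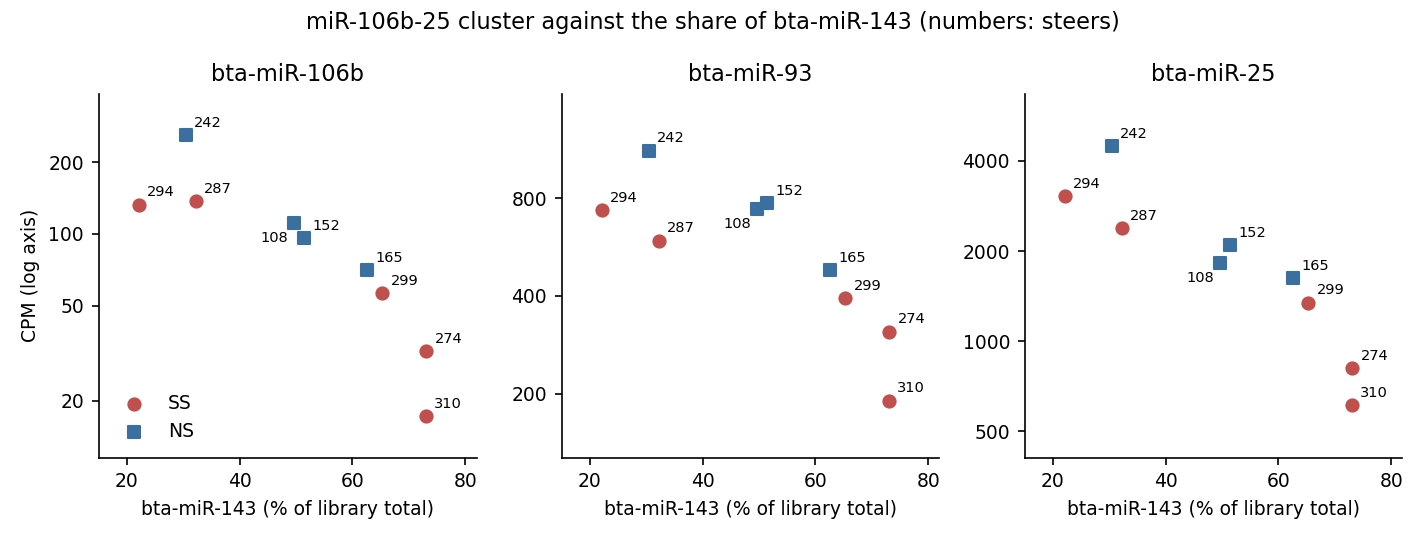
CPM of bta-miR-106b, bta-miR-93 and bta-miR-25 (log axes) against the share of bta-miR-143 in the library total, with 1 point per library marked by its steer number, SS as circles and NS as squares. SS steers 299, 274 and 310, at 65.3% to 73.1% of bta-miR-143, hold the lowest values of all 3 miRNAs.

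Relative to the other miRNAs of its library, bta-miR-93 was among the steadiest miRNAs of the table. When each library was centred on its median tested miRNA, the SD of bta-miR-93 over the 9 libraries was 0.25 on the log2 scale, the 5th lowest of 245, and that of bta-miR-25 was 0.26, the 6th lowest, while the median miRNA had an SD of 0.66. The SD was 0.50 for bta-miR-106b (58th lowest), 0.70 for bta-miR-106a (138th) and 0.93 for bta-miR-363 (175th). With TMM, median-of-ratios and quantile scaling, chosen for this measure after seeing the data, bta-miR-93 was 2nd, 3rd and 1st, and bta-miR-25 was 17th, 23rd and 39th. With the deposited values, which keep the shifts between libraries, bta-miR-93 was 85th (SD 0.78) and bta-miR-25 120th (SD 0.90). The ranks are a description, and low miRNAs carry more counting error than abundant ones, with 481 to 1606 reads per library behind bta-miR-93 and 0 to 15 behind bta-miR-106a.

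**Figure D4:**
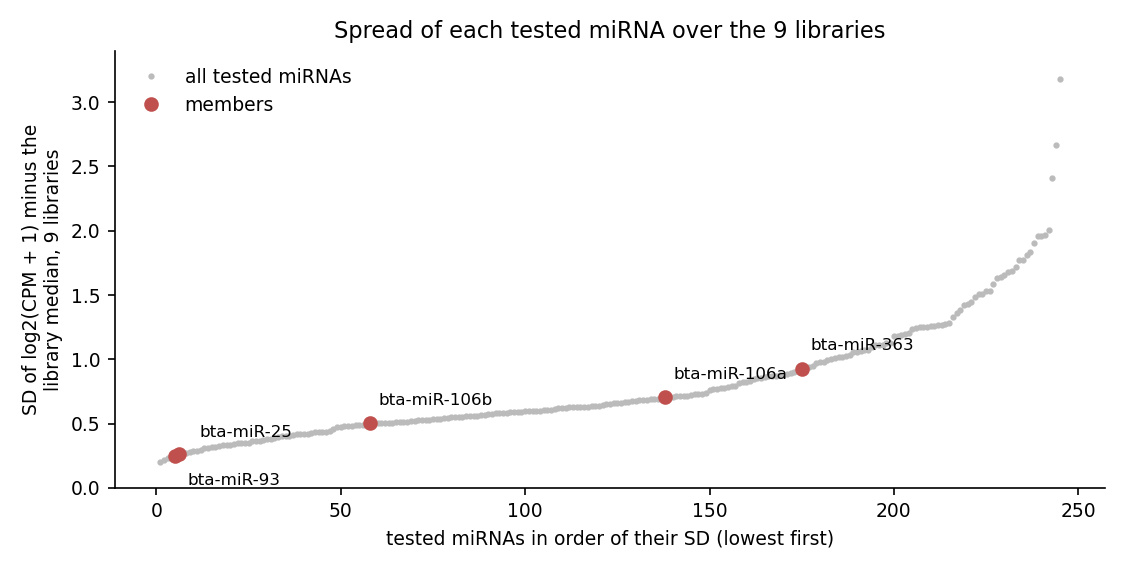
SD over the 9 libraries of log2(CPM + 1) minus the library median, for all 245 tested miRNAs in order (grey) with the 5 tested members marked (red). The points of bta-miR-93 (0.25) and bta-miR-25 (0.26) lie at the low end, and bta-miR-363 (0.93) lies in the upper part.

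On this centred scale bta-miR-93 was 2.39 ± 0.16 log2 units above the median miRNA in SS (SD, n = 5), against 2.77 ± 0.16 in NS (SD, n = 4). In total, 4 of the 5 SS libraries lay below every NS library, the exception being SS steer 274 at 2.63, next to NS steer 242 at 2.62. The difference of -0.38 had a two-sided exact permutation p of 0.0238, unadjusted and 1 of 7 such tests on the members, where the smallest possible p is 0.00794. On this scale 6.94% of the 245 miRNAs were lower in SS at an exact permutation p under 0.05, 62.9% were lower at any p, and the median miRNA was at -0.18. In limma, which takes its prior from all miRNAs, the adjusted p was 0.545. The difference of bta-miR-93 shrank to -0.21 with TMM scaling and to -0.05 with quantile normalization. The only member at an unadjusted p under 0.05 in limma on the centred scale was bta-miR-106a, at -0.91 (limma adjusted p = 0.463), where 6.94% of all tested miRNAs were lower in SS at that level. As bta-miR-106a passed the filter through NS, the group in which it was higher, this p is no support for a difference.

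Ratios between members inside a library depend on how libraries were scaled only through the added pseudocount of 1 CPM. Although the 3 miRNAs of the miR-106b-25 cluster come from neighbouring hairpins in 1 host gene, their mature levels were not equal, with bta-miR-25 at 70.4% to 77.9% of the summed cluster in SS and 68.2% to 76.5% in NS. The share of bta-miR-93 was 18.8% to 26.9% in SS and 19.1% to 27.6% in NS, and that of bta-miR-106b 2.11% to 4.39% in SS and 3.24% to 4.41% in NS. The log2 ratio of bta-miR-25 to bta-miR-93 was 1.78 ± 0.27 in SS and 1.62 ± 0.31 in NS (SD, n = 5 and 4, two-sided exact permutation p = 0.437). For bta-miR-93 to bta-miR-106b it was 2.79 ± 0.53 in SS and 2.65 ± 0.38 in NS (exact permutation p = 0.643). For bta-miR-25 to bta-miR-106b it was 4.57 ± 0.34 in SS and 4.27 ± 0.23 in NS (exact permutation p = 0.127), with overlapping groups. On this log2 ratio 4 of the 5 SS libraries lay above every NS library, and on the ratio of CPM without the pseudocount 3 of the 5 did. Of 7 such ratios none passed an unadjusted p under 0.05, and the smallest p adjusted over the 7 ratios was 0.622.

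The miRNAs of the cluster were also compared in how they varied between animals, on the centred scale and over the 9 libraries. For bta-miR-106b and bta-miR-25, Pearson's r was 0.823 (exact permutation p = 0.00230, 0.00922 adjusted over 4 pairs) and Spearman's rho was 0.703 (exact permutation p = 0.0403, adjusted 0.118). Without the 2 libraries farthest from the median of bta-miR-106b, r was 0.705. The r of 0.823 is not particular to the cluster, as bta-miR-15a reached 0.923 with bta-miR-106b and bta-miR-16a 0.958 with bta-miR-25. SS and NS were pooled, and the share of all miRNA pairs that reach such an r was not computed. For bta-miR-106b and bta-miR-93, r was 0.449 (exact permutation p = 0.227) and rho 0.385 (p = 0.305, exact permutation), and r was 0.286 without the 2 farthest libraries. For bta-miR-93 and bta-miR-25, r was 0.394 (exact permutation p = 0.290) and rho 0.533 (p = 0.148, exact permutation), and r was 0.108 without the 2 farthest. For the X-linked bta-miR-106a and bta-miR-363, r was 0.513 (exact permutation p = 0.158) and rho 0.667 (p = 0.0589, exact permutation), and r was 0.750 without the 2 farthest. With the deposited values the 3 pairs of the cluster had r of 0.952 to 0.984, which includes the shift that each library shares over its miRNAs.

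The miRNAs whose centred pattern was most like each member over the 9 libraries differed between members. For bta-miR-106b they were bta-miR-15a (r = 0.923), bta-miR-326 (r = 0.917) and bta-miR-16b (r = 0.917), and for bta-miR-25 they were bta-miR-16a (r = 0.958), bta-miR-2336 (r = 0.882) and bta-miR-17-3p (r = 0.874), the passenger strand of miR-17. For bta-miR-93 they were bta-miR-128 (r = 0.892), bta-miR-497 (r = 0.794) and bta-miR-423-3p (r = 0.757). For bta-miR-106a they were bta-miR-155 (r = 0.754), a miRNA of activated lymphocytes, bta-miR-92b (r = 0.722) and bta-miR-92a (r = 0.708), and for bta-miR-363 they were bta-miR-15a (r = 0.901), bta-miR-142-5p (r = 0.887), a miRNA of blood cells, and bta-miR-2484 (r = 0.881). These r are a description over 9 libraries, picked as the highest of 244 per member.

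Within the miR-17 family, bta-miR-93 supplied most of the reads in every library. Over bta-miR-106b, bta-miR-93, bta-miR-106a, bta-miR-20b and their miR-17-92 relatives bta-miR-17-5p and bta-miR-20a, the sum averaged 697 ± 399 CPM over the 5 SS and 1160.0 ± 392 CPM over the 4 NS (mean ± SD). Of this, bta-miR-93 took 60.1% to 74.7% in SS and 63.2% to 72.0% in NS, bta-miR-106b 9.70% ± 2.81 in SS and 11.0% ± 3.29 in NS, bta-miR-17-5p 10.4% ± 3.53 in SS and 9.98% ± 1.82 in NS, and bta-miR-20a 12.6% ± 1.38 in SS and 10.9% ± 4.41 in NS. The X-linked bta-miR-106a and bta-miR-20b each stayed under 1% of the family in every library, at up to 0.442% and 0.552% in SS and up to 0.749% and 0.738% in NS. Beside its relative bta-miR-18a, the member bta-miR-18b made up 4.90% ± 3.79 of the miR-18 pair in SS and 8.93% ± 6.84 in NS, on 0 to 4 reads per library.

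In the miR-25 family the member bta-miR-25 was the smaller part. The family sum of bta-miR-25, bta-miR-363, bta-miR-92a and bta-miR-92b averaged 7576 ± 6088 CPM over the 5 SS and 16420.0 ± 4651 CPM over the 4 NS (mean ± SD), with bta-miR-25 at 17.2% to 30.8% of it in SS and 9.58% to 20.9% in NS. The rest was almost all bta-miR-92a, at 66.6% to 81.0% in SS and 75.8% to 85.9% in NS. The ratio of bta-miR-25 to bta-miR-92a was 0.361, 0.462, 0.213, 0.259 and 0.322 in SS steers 274, 287, 294, 299 and 310, against 0.111, 0.186, 0.173 and 0.276 in NS steers 108, 152, 165 and 242, with overlap only through NS steer 242 and SS steers 294 and 299. To bta-miR-92b the ratio was 6.87 to 14.4 in SS and 2.19 to 6.72 in NS, which did not overlap. The level of bta-miR-92b alone did not overlap either, at 42.3 to 278 CPM in SS and 370 to 833 CPM in NS. SS lay below NS without overlap for 6.53% of the 245 tested miRNAs, bta-miR-92b among them. That share was not computed for ratios. Other ratios to relatives overlapped. They were bta-miR-106b to bta-miR-17-5p (0.722 to 1.24 in SS, 0.633 to 1.93 in NS) and bta-miR-93 to bta-miR-17-5p (4.00 to 11.0 in SS, 5.09 to 8.37 in NS). The last was bta-miR-93 to bta-miR-20a (4.23 to 6.92 in SS, 4.07 to 10.7 in NS). All these ratios were chosen after their values were seen and were not tested.

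**Figure D5:**
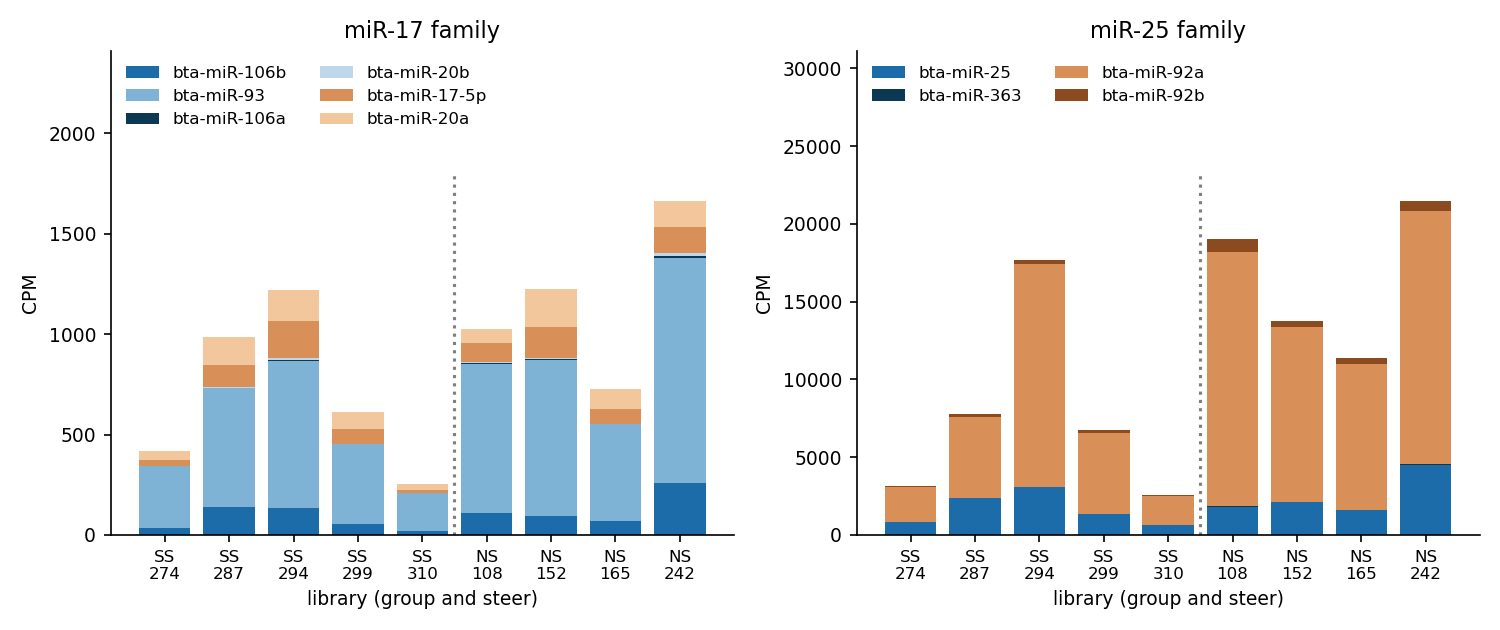
Stacked CPM of the miR-17 family (left) and the miR-25 family (right) in each library, SS left of NS, with members in blue and their relatives in brown. The miR-17 family is mostly bta-miR-93 in every library, and the miR-25 family mostly bta-miR-92a, with bta-miR-25 at 9.58% to 30.8%.

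The list of miR-17-92 miRNAs, to which bta-miR-92b from outside that cluster was added, showed the same general direction with the deposited values. All 8 miRNAs of this list were tested and had lower means in SS (median log2 difference -0.87), against 88.2% of all tested miRNAs. In limma 2 of the 8 had an unadjusted p under 0.05 and 0 passed the thresholds. The 2 were bta-miR-92a (log2 difference -1.56, SE 0.57), which can also come from the X-linked run, and bta-miR-92b (log2 difference -2.08, SE 0.60). Both had a limma adjusted p of 0.297. DESeq2, which called 3.67% of all tested miRNAs, called bta-miR-92b (adjusted p = 0.0382), and edgeR did not (adjusted p = 0.243 in the quasi-likelihood test and 0.134 in the exact test). With TMM scaling the miR-25 family relatives bta-miR-92a and bta-miR-92b were at -0.87 (95% confidence interval -1.66 to -0.08, limma adjusted p = 0.434) and -1.39 (95% confidence interval -2.17 to -0.61, limma adjusted p = 0.246). The other relatives were at -0.42 for bta-miR-17-3p, -0.33 for bta-miR-18a, -0.18 for bta-miR-17-5p, -0.04 for bta-miR-19a, 0.03 for bta-miR-19b and 0.09 for bta-miR-20a on that scale. Members and relatives are close in sequence, and how reads that match several of them were assigned is not given in the sources used here, so the split between paralogs such as bta-miR-106a and bta-miR-17-5p is uncertain. Of 105 pairs among these 15 miRNAs, 0 stayed within 15% of one another through all 9 libraries. This count finds only near-identical rows and cannot show whether reads were partly shared.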

How the data were processed

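Rectal RNA of 5 SS and 4 NS was turned into small RNA libraries by the authors (Illumina TruSeq Small RNA kit), and reads were assigned to miRBase sequences with the sRNA toolbox (the submitters' processing notes name Bowtie and edgeR). No tool versions or genome build are named for the small RNA data. The deposited values are called CPM or RPM by the authors and were recorded as a read-based signal, because the columns sum to 1024945 to 1089433. In each library the values were whole multiples of 1 read's worth (100% of values, largest deviation 1.07e-08 reads), which gave back the reads and the library totals. All 9 columns were used.

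MiRNAs at 5 CPM or more in at least 4 libraries were tested on log2(CPM + 1), which understates the change of low miRNAs, with limma 3.58.1 (R 4.3.3, trended prior) and Benjamini-Hochberg adjustment over 245 miRNAs. The design had assumed plain CPM, and count tests on the recovered reads (edgeR 4.0.16 and DESeq2 1.42.0) were alternatives. The procedure was tested on simulated data. There all libraries had the same mean profile apart from added group changes, so shifts in makeup between libraries, as found here, were not covered. Single values were compared with an exact two-sided permutation test over the libraries. Intervals (95%) and the 3 reads allowed by a value of 0 describe counting error alone, as molecular identifiers were not used.

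Members and lists were chosen with earlier results of these data known. The miRNAs named were the members, the miR-17-92 list with bta-miR-92b, and the 3 tested miRNAs most like each tested member. Naming by shared seed was planned but not done here, as no sequences were used.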

Additional observations from a re-analysis of the deposited data

Results flagged for a closer look

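Of 44 groups of values examined, 2 held a library far from the rest of its group, which is about the 1 in 20 that chance gives. The levels of miRNAs were examined as CPM, not on the log2 scale. In NS steer 242 bta-miR-25 was at 4483 CPM, while the 3 remaining NS libraries held 1622 to 2097 CPM. In SS steer 294 the relative bta-miR-92a was at 14342 CPM, against 1894 to 5189 CPM in the other SS libraries. Their causes were not tested.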

How the results depend on the processing

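The count of calls was 0 in limma and became 1 with no filter, 1 in edgeR's exact test and 9 in DESeq2, none of them a member. The log2 differences of the 7 members kept their direction in every alternative run, and leaving out 1 library at a time gave -1.36 to -0.63 for bta-miR-106b, -1.12 to -0.63 for bta-miR-93, -1.03 to -0.42 for bta-miR-25, -1.95 to -1.08 for bta-miR-106a, -1.71 to -0.55 for bta-miR-363, -1.59 to -0.68 for bta-miR-20b and -1.01 to -0.31 for bta-miR-18b. Under the other alternatives bta-miR-25 ranged from -0.74 to -0.02 and bta-miR-93 from -0.90 to -0.05. With a pseudocount of 5 the SS minus NS difference in the log2 ratio of bta-miR-363 to bta-miR-106a was -0.042, against 0.27 with 1, and that of bta-miR-106a to bta-miR-106b was 0.26, against -0.38 with 1. When single libraries were left out, the difference in log2 ratio ranged from -0.032 to 0.32 for bta-miR-93 to bta-miR-106b, 0.18 to 0.42 for bta-miR-25 to bta-miR-106b (exact permutation p = 0.0286 without SS steer 287), 0.28 to 1.34 for bta-miR-18b to bta-miR-106a (exact permutation p = 0.0357 without NS steer 165) and -0.14 to 0.59 for bta-miR-363 to bta-miR-106a. The causes were not tested. The filter of 20 CPM gave no value for the 4 X-linked members, and the count tests gave none for bta-miR-20b and bta-miR-18b. The X-linked members rest on the fewest reads, 0 to 49 reads per library, and 1 read was worth 0.158 CPM in the deepest library and 1.54 CPM in the shallowest. No paired analysis was possible, as no steer number occurs in both groups and the labels do not say which pen-mates belonged together. Shared pens were therefore not taken into account.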
